A study of Bos taurus with 40 samples.

Results

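The receptors through which hypothalamic releasing and inhibiting hormones act on the anterior pituitary gland were followed through 4 tissues of cattle, namely the pituitary gland, the liver, fat of the abdomen and longissimus dorsi muscle from along the spine. The genes were chosen by name from their known role. Of 9 genes proposed, 8 had a row in the count tables, which hold 13570 genes: GHRHR, GNRHR, TRHR, CRHR1, AVPR1B, GHSR, SSTR2 and DRD2. SSTR5 was not analysed here. All 8 genes had at least 1 read in at least 1 library, and so all 8 were among the 13148 genes tested.

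The study compared female and male expression by RNA-seq in 10 Korean cattle, a beef breed, slaughtered at over 22 months of age. Its groups are 5 cows and 5 bulls in each of the 4 tissues, with 1 library per animal and tissue and 40 libraries in all. The groups differ in sex and tissue alone as far as the labels go, and neither the reproductive state of the cows nor the lobes within the pituitary sample is given in the sources used here. The animals of each sex are numbered from 1 to 5, and a cow and a bull of the same number are not a pair.

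Releasing hormones reach the anterior pituitary gland through the portal vessels and bind G protein-coupled receptors, each on particular endocrine cell types. GHRH and ghrelin raise growth hormone secretion, GnRH raises LH and FSH, TRH raises TSH and prolactin, and CRH together with vasopressin raises ACTH. Somatostatin and dopamine act the other way, on growth hormone and TSH and on prolactin respectively, through receptors that couple to inhibitory G proteins.

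Levels are given as CPM, the read counts of a gene scaled to a common library size by way of TMM factors set over the 40 libraries. A library held 5173092 to 19165864 reads on genes, with a median of 10005607, and counting precision differs between libraries accordingly. The 7 pituitary hormone genes GH1, PRL, POMC, TSHB, LHB, FSHB and CGA summed to between 82770.5 and 286052 CPM in the pituitary libraries, and the markers of liver, fat and muscle were likewise highest in their own tissue, ADIPOQ not being analysed here. By their sex-linked genes 2 libraries stood apart from their groups. The liver library labelled bull 3 had 1401 CPM of XIST, the RNA of the inactive X chromosome, against 681 to 2179 CPM in the livers of cows, no read of the Y-linked genes USP9Y, DDX3Y and ZFY, and the closest correlation of any pair of libraries within a tissue with the liver of cow 4 (Pearson's r = 0.993 across genes). The fat library labelled bull 5 had 1.78 CPM of USP9Y against 28.1 to 34.1 CPM in the fat of the other bulls, with 23, 2 and 3 reads of USP9Y, DDX3Y and ZFY, while its XIST level of 1.39 CPM was far from cow fat, where XIST and these Y-linked genes summed to 316 to 981 CPM. Counts of receptor genes called in liver, in fat, between tissues and over tissues were the same without both libraries.

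Reads of the receptor genes came mainly from the pituitary gland. In the comparison of tissues, all 8 were higher in pituitary gland than in liver and all 8 were higher than in fat, and 7 of 8 were higher than in muscle, CRHR1 being the exception (edgeR quasi-likelihood test, adjusted p under 0.05). Of all 13148 genes, 35.1% were higher in pituitary gland than in liver, 32.8% higher than in fat and 32.5% higher than in muscle, and 64.5%, 64.6% and 64% differed in either direction. The median log2 fold change of the 8 genes was 9.78 against liver, 8.58 against fat and 6.88 against muscle, where the medians over all genes were 0.12, 0.02 and 0.03. With genes that had no read in a tissue set to the fold that 3 reads over its 10 libraries would give, the medians against liver and fat were 9.20 and 8.36. In whole tissue, fewer cells of a type and less RNA per cell cannot be told apart.

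**Figure D1:**
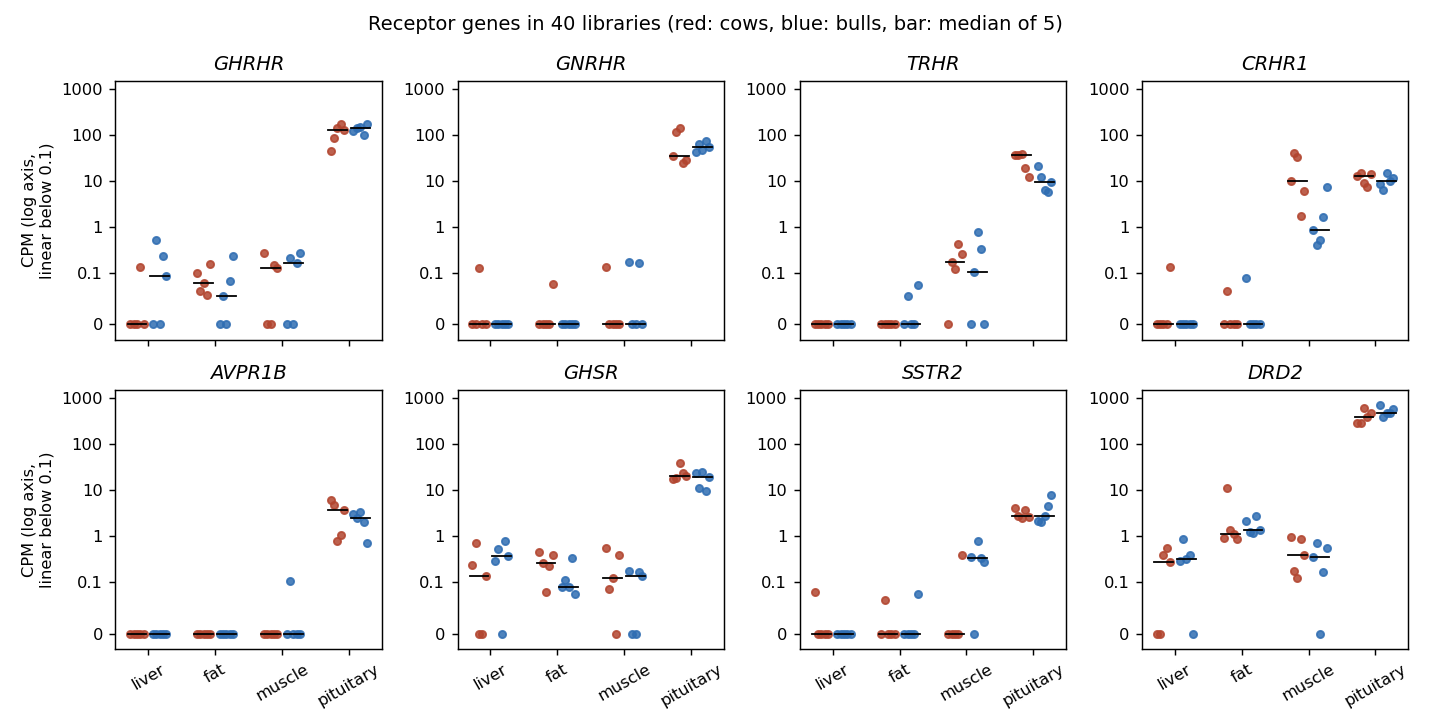
CPM of each receptor gene in the 40 libraries, 1 panel per gene, with tissues on the horizontal axis and CPM on a vertical axis that is logarithmic above 0.1 and linear below. Red points are cows, blue points are bulls and bars are medians of 5 animals; the pituitary points lie above all others in 7 panels, and in the CRHR1 panel the muscle points span 0.420 to 41.5 CPM across the pituitary range.

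GHRHR, the receptor that drives growth hormone synthesis in somatotropes, stood at 46.1, 87.9, 144, 174 and 128 CPM in the pituitary glands of cows 1 to 5. In bulls 1 to 5 it stood at 123, 142, 154, 102 and 175 CPM. Cow 1 was lowest, and the bulls lay within the range of the cows apart from bull 5, which stood beside cow 4 at its upper end. Elsewhere a library held 0 to 3 reads of GHRHR, 8 in all in liver, 12 in fat and 9 in muscle, against 19663 reads in pituitary gland. The pooled level in pituitary gland was 1353-fold that in liver (95% interval 686 to 3134, exact and covering counting error only), 1476-fold that in fat (845 to 2858) and 1019-fold that in muscle (537 to 2229).

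GHSR, the ghrelin receptor, was measured at 17.7, 18.6, 38.8, 23.6 and 20.03 CPM in the pituitary glands of cows. The bulls had 23.6, 11.2, 24.9, 9.70 and 19.1 CPM, so the sexes overlapped and cow 3 stood above all other animals. GHSR was the receptor gene with the smallest fold against liver and fat, at 56.5-fold (39.5 to 83.9) and 86.8-fold (61.3 to 127), and it was 119.7-fold higher than in muscle (68.5 to 232). In fat all 10 libraries held 1 to 9 reads of it, and in liver 7 of 10 libraries held up to 10.

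GNRHR, which gonadotropes use to respond to GnRH, was uneven among cows, at 35.9, 117, 144, 24.4 and 29.3 CPM. Cows 2 and 3 stood above all other animals. In bulls GNRHR was at 43.9, 62.9, 46.9, 76.5 and 55.2 CPM, and every bull lay between the lower 3 and the upper 2 cows. Outside the pituitary gland only 1 read was found in liver, 1 in fat and 3 in muscle, which gives folds of 5654 (1014 to 223326), 9256 (1661 to 365634) and 1597 (546 to 7745).

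TRHR, the receptor of thyrotropes and lactotropes for TRH, was at 37.0, 36.9, 39.3, 19.5 and 12.5 CPM in the pituitary glands of cows. In bulls it was at 20.9, 12.6, 6.42, 5.82 and 9.59 CPM. Cows 1 to 3 were above all bulls, while cows 4 and 5 lay within the range of the bulls. Liver held no read of TRHR in any of its 10 libraries, so the level in pituitary gland was at least 561-fold higher, counted against 3 reads over the group. Fat held 2 reads, a fold of 1378 (381 to 11381).

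CRHR1, the CRH receptor of corticotropes, was among the steadiest receptor genes of the pituitary gland, at 13.0, 15.2, 9.28, 7.56 and 14.4 CPM in cows. In bulls it was at 8.89, 6.45, 14.7, 9.92 and 11.6 CPM, and the sexes overlapped almost entirely. Liver held 1 read and fat 2, for folds of 954 (171 to 37713) and 781 (216 to 6456). Muscle held 951 reads and is described further on.

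AVPR1B, the pituitary receptor for vasopressin that acts beside CRHR1 on corticotropes, was counted in few reads. Its values in pituitary gland were 6.06, 4.71, 0.797, 1.09 and 3.76 CPM in cows and 3.07, 2.52, 3.36, 2.07 and 0.717 CPM in bulls. The highest value was 8.44 times the lowest, the widest range of the 8 genes. AVPR1B had no read in liver or fat and 1 read in muscle, so the level in pituitary gland was at least 81.8-fold higher than in liver and at least 134-fold higher than in fat. A count of 0 still allowed up to 1.22% of the pituitary level in liver and 0.747% in fat.

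SSTR2, a receptor for somatostatin, was low in pituitary gland as well, with 4.10, 2.83, 2.46, 3.74 and 2.60 CPM in cows. In bulls it was at 2.18, 2.02, 2.75, 4.45 and 7.83 CPM, and bull 5 was highest of all animals. Liver held 1 read and fat 2 reads, with folds of 307 (54.8 to 12129) and 251 (69.1 to 2077). Against muscle, with 12 reads, the fold was 21.6 (12.3 to 42.2), the smallest of the 7 genes that were higher in pituitary gland than in muscle.

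DRD2, the dopamine receptor through which prolactin secretion is held down, had 72043 reads in the 10 pituitary libraries. It was at 283, 291, 602, 388 and 467 CPM in cows and at 706, 391, 468, 475 and 595 CPM in bulls. Bull 1 and cow 3 were highest, cows 1 and 2 were lowest, and the sexes overlapped. The folds against liver and muscle were 1724 (1149 to 2719) and 1018 (725 to 1479), and that against fat was 188 (169 to 209.8).

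Within the pituitary gland, the spread between animals was larger than counting error for all 8 genes. The coefficient of variation over the 10 libraries was 29.4% for DRD2, 31.4% for GHRHR and 28.3% for CRHR1, where counting alone would give 1.18%, 2.26% and 7.59%. TRHR, AVPR1B and GNRHR were the most variable, at 65.5%, 62.0% and 61.3%, against counting values of 5.72%, 14.97% and 3.12%. The receptor genes did not vary as a block, since Pearson's r over the 28 pairs of receptor genes and 10 pituitary libraries ranged from -0.74 to 0.62 with a median near 0.

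**Figure D2:**
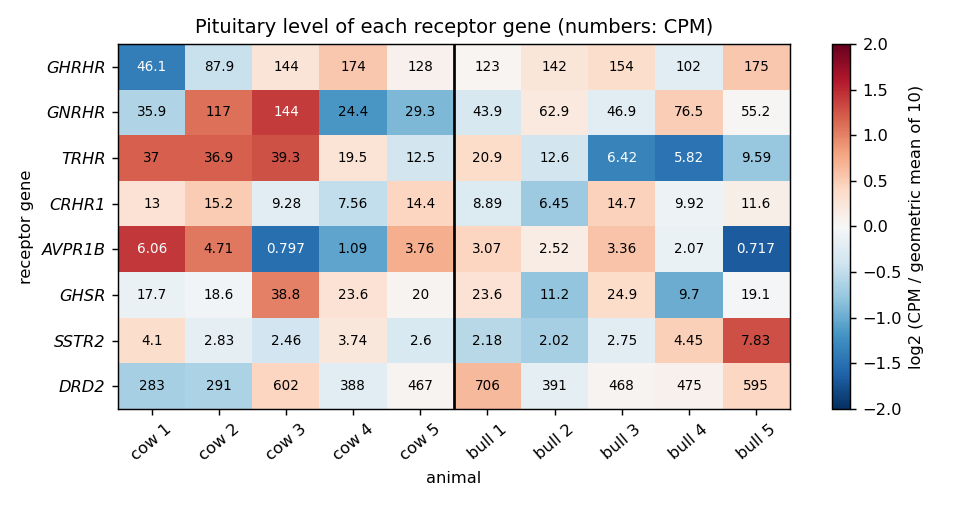
Level of each receptor gene in each pituitary library, with genes in rows and animals in columns. Numbers are CPM and colours are the log2 ratio to the gene's geometric mean over the 10 libraries; TRHR is above its mean in cows 1 to 4 and bull 1, and GNRHR is highest in cows 2 and 3.

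Hormone genes of the pituitary gland were also counted at a low level in the other tissues, so the receptor genes were set beside them. In liver the 7 hormone genes stood at 0.0532 to 0.0665% of their own mean pituitary level, in fat at 0.0300 to 0.118% and in muscle at 0.0470 to 0.101%. In CPM this was up to 311 for PRL in the liver of bull 2, and the muscle library of bull 3 held only 1 read of PRL and none of GH1. GHRHR in fat at 0.0656% and DRD2 and GHRHR in muscle at 0.0932% and 0.0946% were within the range of the hormone genes, and DRD2 and GHRHR in liver, at 0.0667% and 0.0788%, were just above it. The receptor genes that exceeded that range by more than 5 times were GHSR in all 3 tissues, at 1.48% in liver, 1.03% in fat and 0.790% in muscle, and TRHR, SSTR2 and CRHR1 in muscle, at 1.12%, 6.13% and 93.6%. DRD2 in fat was at 0.516%. The part of the hormone gene signal in the receptor values was not tested.

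**Figure D3:**
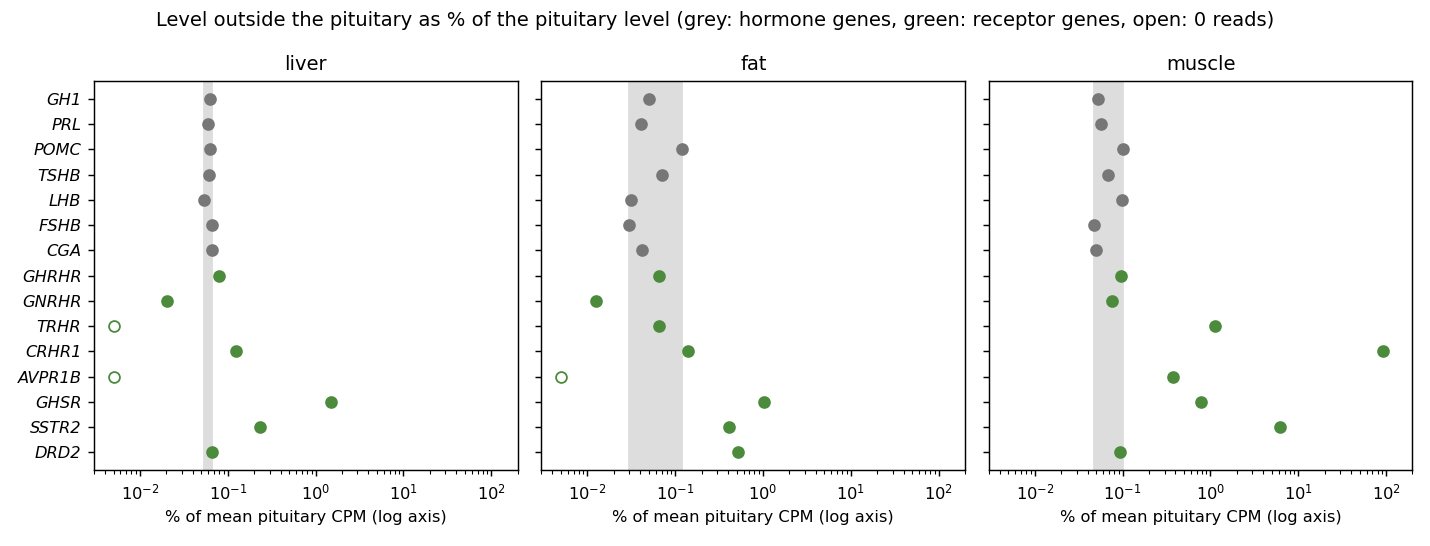
Mean level over 10 libraries in liver, fat and muscle as a percentage of the mean in pituitary gland, on a logarithmic axis, for 7 hormone genes in grey and 8 receptor genes in green. The grey band spans the hormone genes, open circles at the left edge mark 0 reads, and CRHR1 in muscle stands at 93.6%.

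Among the tissues other than the pituitary gland, muscle held 3 of the receptor genes above both other tissues. CRHR1 had 951 reads in muscle, 1 in liver and 2 in fat, SSTR2 had 12, 1 and 2, and TRHR had 14, 0 and 2. All 3 were higher in muscle than in liver, with adjusted p of 4.18e-12, 0.00165 and 0.000417, and higher than in fat, with adjusted p of 1.18e-12, 0.000718 and 0.00105 (edgeR quasi-likelihood test). Of all genes 34% were higher in muscle than in liver and 26.8% higher than in fat. In each single comparison, 3 of 8 receptor genes is a share near the background. The share of all genes higher in muscle than in both was not computed. In either direction 62.1% and 59.6% of all genes differed, against 3 and 4 of the 8 receptor genes, DRD2 being the fourth. TRHR in muscle was 0, 2, 1, 3 and 2 reads in cows and 0, 1, 3, 2 and 0 reads in bulls. SSTR2 in muscle was 0, 0, 0, 0 and 3 reads in cows and 2, 0, 3, 2 and 2 reads in bulls. Each of these values is at or under 3 reads in its library, and the calls come from the sums over 10 libraries. The muscle library of bull 3, the shallowest, had 3 reads of each and 1 read of PRL. Cow 4 also had 3 reads of TRHR, with 1039 reads of PRL. Cow 5 also had 3 reads of SSTR2, with 716 reads of PRL. A relation of these reads to PRL was not tested.

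DRD2, like GHSR, had reads in all 10 fat libraries. It was at 0.927, 10.98, 1.39, 1.10 and 0.866 CPM in the fat of cows and at 2.17, 1.27, 1.19, 2.78 and 1.39 CPM in the fat of bulls, from 11 to 169 reads per library. Cow 2 was far above the others, and the other 9 libraries lay between 0.866 and 2.78 CPM with the sexes overlapping. DRD2 was higher in fat than in liver by 3.07 on the log2 scale (SE 0.561, adjusted p = 1.77e-06) and than in muscle by 2.39 (SE 0.516, adjusted p = 4.59e-05). With each animal left out in turn, the 2 differences were 2.15 to 3.41 and 1.498 to 2.67, lowest without cow 2, and all passed the threshold. Between fat and liver 64.3% of all genes differed and 35.4% were higher in fat, and DRD2 was the only receptor gene of 8 that did. The level of PRL in the fat of cow 2, at 40.4 CPM, was below the median of the fat libraries, 54.3 CPM. A relation of DRD2 to PRL in fat was not tested.

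CRHR1 in muscle had a level of the same order as in the pituitary gland. In the muscle of cows it was at 9.93, 41.5, 33.8, 1.77 and 6.05 CPM, from 72, 480, 266, 12 and 46 reads. In the muscle of bulls it was at 0.868, 0.420, 0.529, 1.66 and 7.46 CPM, from 5, 4, 2, 10 and 54 reads. Cows 2 and 3 were above all 10 pituitary libraries, 4 bulls were below all 5 cows, and bull 5 was within the range of the cows. The mean over 10 libraries was 11.1 CPM in pituitary gland and 10.4 CPM in muscle. The model with sex and tissue as terms gave a log2 fold change of pituitary gland to muscle of 0.66 (SE 0.439, adjusted p = 0.215), which did not pass the threshold, and the means differed in opposite directions in the sexes, at 11.9 against 18.6 CPM in cows and 10.3 against 2.19 CPM in bulls. With the animal as a replicate block the difference was 1.28 (adjusted p = 0.00884) and with library sizes alone it was 1.49 (adjusted p = 0.00829), both past it. The block fit was not repeated without the liver library labelled bull 3 and the fat library labelled bull 5, which it assigned to those animals. The block called 65.1% of all genes here, and library sizes alone called 70.3% and put the median of all genes at 0.89. With the block the number of receptor genes called was 8 against liver, fat and muscle alike, and the shares of all genes were 65.3% against liver and 65.6% against fat, with 64.8%, 60.6% and 62.7% between fat and liver, fat and muscle, and liver and muscle. Pooled over reads the order was the other way, at 118% of the pituitary level in muscle (109 to 127, counting error only), with 480 and 266 of the 951 reads from cows 2 and 3.

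The comparison of sexes in the pituitary gland called 1 of the 8 receptor genes. TRHR was lower in bulls, at 11.1 ± 6.14 CPM (SD, n = 5) against 29.0 ± 12.2 CPM in cows (SD, n = 5), a log2 fold change of -1.39 (SE 0.376, edgeR likelihood ratio test, adjusted p = 0.0394). Of all 13148 genes 0.745% differed by sex in this tissue and 0.19% were higher in cows. The call was made in DESeq2 as well (adjusted p = 0.0280), where 1.03% of all genes differed, and was lost in the quasi-likelihood test (adjusted p = 0.248), where 0.0913% did. It remained when cow 4, cow 5 or bull 1 was left out and was lost when any of the other 7 animals was, with adjusted p between 0.00189 and 0.171 and a log2 fold change between -1.75 and -1.23.

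The other 7 receptor genes did not pass the threshold in the pituitary gland. The log2 fold changes of bulls to cows were 0.26 for GHRHR (95% interval -0.33 to 0.85), -0.42 for GHSR (-1.04 to 0.19), -0.29 for GNRHR (-1.13 to 0.55) and -0.20 for CRHR1 (-0.75 to 0.35). For AVPR1B, SSTR2 and DRD2 they were -0.48 (-1.53 to 0.57), 0.29 (-0.49 to 1.06) and 0.38 (-0.11 to 0.86). Adjusted p ranged from 0.650 for DRD2 to 0.850 for GNRHR (edgeR likelihood ratio test). The intervals are not adjusted over genes and are not limits of detection. With 5 animals of each sex, differences inside them are not excluded. The sexes did not separate completely for any receptor gene in any tissue. Of all genes 1.34% had no overlap between the sexes in pituitary gland, 1.65% in muscle, 1.29% in fat and 0.548% in liver. At such shares, none among 8 genes is near the background. The median log2 fold change of the 8 receptor genes was -0.24, and that of all genes was 0.

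**Figure D4:**
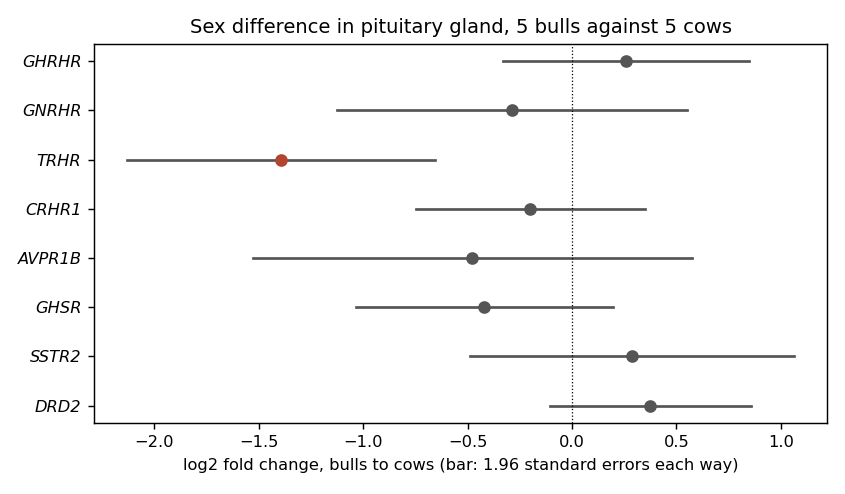
Log2 fold change of bulls to cows in the pituitary gland for the 8 receptor genes, from 5 and 5 libraries. Points are estimates, bars are 95% intervals and the red point is TRHR at -1.39, the only receptor gene with an adjusted p under 0.05.

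In liver, fat and muscle no receptor gene passed the threshold between the sexes, where 0.175%, 0.114% and 0.517% of all genes did. At the adjusted threshold the quasi-likelihood test also called none, with 0.00761%, 0.0228% and 0.0532% of all genes in the 3 tissues. DESeq2 called none either, and its share of all genes in these tissues is not given here. At an unadjusted p under 0.05 there was 1 receptor gene in liver, none in fat and 1 in muscle, where 980, 905 and 1445 of the 13148 genes were. The receptor gene in liver was GHRHR, from 1 read in cows and 7 in bulls. The receptor gene in muscle was CRHR1, with 18.6 ± 17.8 CPM in cows and 2.19 ± 2.99 CPM in bulls (SD, n = 5 each). Its log2 fold change was -3.07 (SE 0.806, edgeR likelihood ratio test, adjusted p = 0.0551), just outside the threshold. The adjusted p was 0.303 in the quasi-likelihood test, 0.107 in DESeq2 and 0.0448 with library sizes alone, where 0.555% of all genes were called. Leaving out 1 animal gave adjusted p from 0.000676 without bull 5 to 0.269 without cow 2, and the threshold was also passed without cow 4 or cow 5. MAPT was the nearest gene with a row beside CRHR1 in the ARS-UCD2.0 annotation, while reads were counted on another assembly, bosTau7. In muscle MAPT was at 51.7 to 212 CPM in cows and 121 to 218 CPM in bulls. A relation of CRHR1 to MAPT was not tested.

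**Figure D5:**
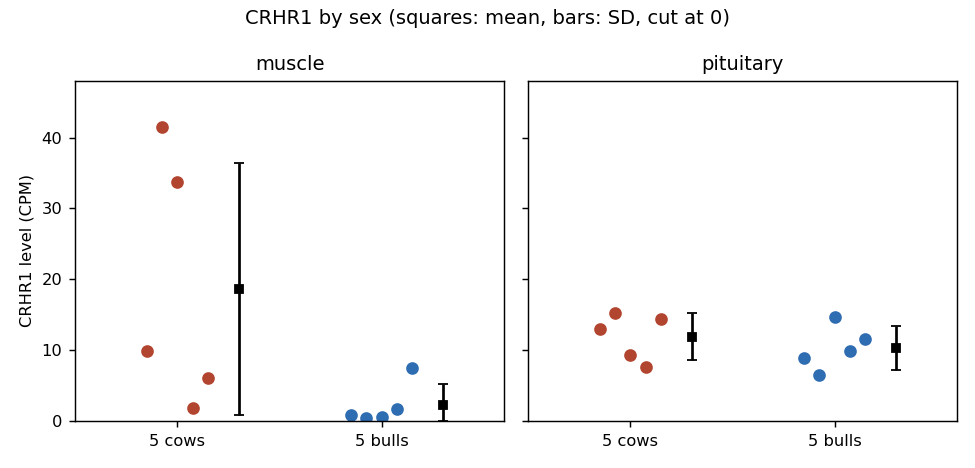
CRHR1 in CPM on a linear axis from 0 in muscle and in pituitary gland, with cows in red and bulls in blue, and squares and bars for mean and SD of 5 animals, cut at 0. In muscle the cows spread from 1.77 to 41.5 CPM and 4 of 5 bulls lie under them, and in pituitary gland the sexes share 1 range.

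Over all 40 libraries, with sex and tissue as terms, none of the 8 receptor genes passed the threshold, and 1.69% of all genes did (edgeR likelihood ratio test). At an unadjusted p under 0.05 there were 2193 of the 13148 genes and 2 of the 8 receptor genes, namely CRHR1 with a log2 fold change of -1.44 (SE 0.518, adjusted p = 0.132) and TRHR with -0.91 (SE 0.409, adjusted p = 0.214). The quasi-likelihood test, with 0.586% of all genes, DESeq2 and limma voom with the animal as a replicate block also called none of the 8. For DESeq2 and limma voom the share of all genes called is not given here, so their result has no background beside it. A test of whether the difference between the sexes depended on tissue called no gene of 13148, a share of 0%, and 922 genes had an unadjusted p under 0.05 (edgeR quasi-likelihood test). CRHR1 was the only receptor gene among the 922, with an edgeR adjusted p = 0.571, and for TRHR the adjusted p was 0.879, so a difference between tissues in the effect of sex was not shown for either gene.

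The hormone genes that the receptors act upon were compared by sex in the same pituitary libraries. CGA, the alpha subunit shared by LH, FSH and TSH, was higher in bulls, at 8741 ± 5149.5 against 2446 ± 668 CPM (SD, n = 5 each, log2 fold change 1.84, adjusted p = 0.0125). GH1, PRL, POMC, TSHB, LHB and FSHB did not pass the threshold, with log2 fold changes of 0.69, 0.37, 1.31, 0.15, 1.25 and 1.63. Of the transcription factors of these lineages, NR5A1, which marks gonadotropes, was higher in bulls, at 79.2 ± 18.5 against 46.5 ± 9.74 CPM (0.77, adjusted p = 0.0441). POU1F1, the factor of somatotropes, lactotropes and thyrotropes, was at 44.6 ± 19.0 CPM in bulls and 76.8 ± 14.9 CPM in cows (-0.79, adjusted p = 0.163), and TBX19, the factor of corticotropes, was at 110.4 ± 68.8 and 77.9 ± 16.1 CPM (0.50, adjusted p = 0.655).

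Across the 10 pituitary libraries, 18 relations between a receptor gene and a hormone gene, lineage factor or partner receptor were computed on log2(CPM + 1), and none had an adjusted p under 0.05 by Pearson's r or Spearman's rho (permutation tests, 2-sided). TRHR and POU1F1 had r = 0.70 (permutation p = 0.0282, adjusted p = 0.398) and rho = 0.53 (permutation p = 0.123, adjusted p = 0.561), r = 0.69 without the 2 libraries farthest from the median of TRHR, and r = 0.35 after the mean of each sex was taken off (permutation p = 0.317). AVPR1B and TBX19 had r = -0.63 (permutation p = 0.0442, adjusted p = 0.398), rho = -0.49 (permutation p = 0.156, adjusted p = 0.561), -0.41 without the 2 farthest libraries and -0.62 within sex. GNRHR had r of -0.02 with LHB, -0.49 with FSHB and -0.16 with CGA (permutation p of 0.958, 0.155 and 0.658), rho of 0.12, -0.33 and -0.24 (permutation p of 0.762, 0.350 and 0.515), and without the 2 libraries farthest from its median these were 0.58, 0.45 and 0.50, so their signs rested on those libraries. Within sex the 3 values were -0.0498, -0.65 and -0.24 (permutation p of 0.894, 0.0403 and 0.507), and the smallest adjusted p within sex over the 18 relations was 0.464.

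Ratios of receptor genes, and of a receptor gene to its hormone gene, were compared between the sexes within libraries, which does not depend on the scaling of the libraries. Of 9 ratios none had an adjusted p under 0.05 (exact permutation test over all assignments of 5 and 5 animals, 2-sided, smallest possible p 0.00794). The ratio of TRHR to DRD2, a releasing and an inhibiting receptor of lactotropes, had a median of 0.0653 in cows (0.0269 to 0.131) and 0.0162 in bulls (0.0123 to 0.0323). Its mean differed by -1.82 on the log2 scale (exact permutation p = 0.0238, adjusted p = 0.167). The ratio of CRHR1 to POMC differed by -1.23 (exact permutation p = 0.0397, adjusted p = 0.167), and that of GHRHR to GHSR by 0.84 (exact permutation p = 0.0556, adjusted p = 0.167). The ratio of GHRHR to SSTR2 differed by 0.26 and that of DRD2 to PRL by 0.00478, with exact permutation p of 0.651 and 1.

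Other genes of the hypothalamic and pituitary signalling chain were described from 8 lists of 136 genes, of which 118 were tested. All 7 hormone genes and 11 of 14 lineage factors were higher in pituitary gland than in each of the other tissues, as were 5 of 13 related receptors, 2 of 15 hypothalamic ligands and 4 of 18 receptors for peripheral feedback. Among genes that act after the receptors, this held for 2 of 9 G protein alpha subunits and 1 of 18 genes of receptor desensitization. It also held for 2 of 24 genes of adenylyl cyclases, phospholipases and second messengers. For all genes, the share higher in pituitary gland than in each of the other tissues was not computed. These list counts therefore have no background beside them. By sex in the pituitary gland, 1 of the 118 was higher in cows and 5 were higher in bulls (edgeR likelihood ratio test), where 0.19% and 0.555% of all genes were, with CGA and NR5A1 among them, and the quasi-likelihood test called none.

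CRHR2, the other CRH receptor, was the gene higher in cows, at 0.363 ± 0.300 CPM against 0.0384 ± 0.0362 CPM in bulls (log2 fold change -3.08, adjusted p = 0.0334), levels of few reads. RGS4, which speeds the switching off of G protein signals, was higher in bulls, at 27.1 ± 11.3 against 10.3 ± 4.48 CPM (1.39, adjusted p = 0.00635), with no overlap between the sexes. FOXL2, a factor of gonadotropes, was higher in bulls at 9.31 ± 2.86 against 3.96 ± 0.562 CPM (1.23, adjusted p = 0.00710). So was AVP, the vasopressin gene, at 0.944 ± 0.335 against 0.160 ± 0.0944 CPM (2.49, adjusted p = 0.00320). In cows AVP was at 0.0631 to 0.273 CPM, a level of few reads. AVP and CRHR2 also had no overlap between the sexes, as had 1.34% of all genes in pituitary gland. The median log2 fold change was 1.25 for the hormone genes, 0.41 for lineage factors, 0.40 for related receptors and between -0.19 and 0.00 for the other 5 lists. No gene passed the threshold among G protein subunits, second messenger genes and feedback receptors, in which the largest differences at 1 CPM or more were -0.47 for GNAL, -0.37 for GNAI1, -0.91 for PLCB1, 0.79 for ADCY8, -1.01 for LEPR and 0.84 for FST.

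Markers of other cell types moved with sex in the pituitary libraries in 2 cases. Of 3 fibroblast markers, whose sum was 215 to 341 CPM in cows and 313 to 909 CPM in bulls, COL1A1 was higher in bulls (log2 fold change 1.39, adjusted p = 0.0345) and COL3A1 and DCN were not called. Of 6 muscle markers, summing to 4.67 to 28.0 CPM in cows and 13.2 to 58.0 CPM in bulls, MYH2 was higher in bulls (2.34, adjusted p = 0.0101). The sums of 3 leukocyte markers were 18.4 to 65.3 CPM in cows and 12.03 to 35.6 CPM in bulls. Those of 3 markers of vessels were 63.7 to 114 and 73.5 to 156 CPM. A list for the posterior or intermediate lobe had 3 counted genes, NKX2-1, GFAP and S100B, with sums of 47.9 to 116 and 70.9 to 129 CPM. S100B alone was at 42.8 to 65.3 CPM in cows and 60.0 to 83.7 CPM in bulls. This sum was 301 to 1121 CPM in the fat of cows, so it does not measure the share of these lobes. None of the 9 genes of these 3 lists was called. The part of these cell types in the difference of TRHR was not tested. In muscle, where CRHR1 spread most, the summed muscle markers were 121854 to 166694 CPM in cows and 118431 to 185039 CPM in bulls.

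As a description of which genes varied most like each receptor gene, Pearson's r of log2(CPM + 1) over the 10 pituitary libraries was taken with the 7647 genes of at least 10 CPM on average. The 2 closest genes were UBXN2A (0.97) and LACE1 (0.96) for TRHR, RBM10 (0.93) and HSPB6 (0.93) for DRD2, LMAN2L (0.93) and AUH (0.90) for AVPR1B, and EPHX2 (0.92) and TMIE (0.86) for CRHR1. For GNRHR they were SULF2 (0.90) and OGN (0.87), for SSTR2 SLC22A5 (0.85) and F3 (0.84), for GHRHR SERPINE2 (0.84) and DLGAP4 (0.84), and for GHSR C18H19orf54 (0.84) and HIF3A (0.83). These libraries share sex, depth and scaling, and the highest of 7647 values is high by selection.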

How the data were processed

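Total RNA of 4 tissues from 5 cows and 5 bulls was sequenced. Per the labels and the study's methods, the authors used Trimmomatic to remove adapters, mapped paired-end reads to bosTau7 through TopHat2 and Bowtie2, counted uniquely aligned reads per UCSC gene with HTSeq, and deposited raw counts without normalization. The counting mode and strand setting are not given in the sources used here. Reads aligning to several places were not counted, and without strand a gene and an overlapping antisense gene cannot be told apart. A row without a gene name, equal to 0.114 to 2.69% of the reads on genes, was left out.

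Groups follow the labels. The 8 receptor genes, the pathway lists and the markers were chosen with earlier results of these data known. Genes with at least 1 read in 1 of 40 libraries (13148) entered the fits, made in edgeR 4.0.16 under R 4.3.3 with TMM factors, a prior count of 0.125 and Benjamini-Hochberg adjustment at 0.05. Sex was tested per tissue (M1) and with tissue as a further term (M2) by likelihood ratio tests, as the study's models are built, and tissues and the interaction by quasi-likelihood tests. Log2 fold changes are bulls to cows, or first to second tissue. CPM used factors set jointly over 40 libraries. Pooled folds divide summed reads by summed effective library sizes, with 95% Clopper-Pearson intervals, which cover counting error only; a tissue at 0 reads was set to 3 reads over the group. Reads carry no molecular identifiers. Correlations used 100000 permutations and ratios, with 1 read added, exact permutation. The tests were tested on simulated data, with the same spread set for all genes. Changed genes were drawn only from well counted ones, so genes of few reads were not covered.

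Named genes were the receptor genes, their hormone genes and lineage factors, list genes called by sex in pituitary gland (where a list had none, the 2 largest differences at 1 CPM or more), and the 2 closest genes per receptor gene. Genes and libraries outside this rule (MAPT, markers, sex-linked genes) were named after their values were seen. Tissues of 1 animal were paired by the animal number in the labels; the mean correlation of deviations between tissues of an animal was -0.03 to 0.44. Alternatives were the other edgeR test, DESeq2 1.42.0, limma 3.58.1 voom with the animal as a block, RLE factors, library sizes alone, filterByExpr and leaving out animals or the doubted libraries. Levels were not compared between genes, and no motif was searched, as no transcript length or sequence was used here. Plots were made in Python 3.11.15 (matplotlib 3.10.9).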

Additional observations from a re-analysis of the deposited data

Results flagged for a closer look

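In 5 of 55 groups of 5 libraries, 1 library stood apart from the other 4 by Dixon's criterion. Groups were taken for each gene, tissue and sex with at least 3 reads in 1 library. They included the hormone and lineage factor genes in pituitary gland, and all 5 flagged groups were of receptor genes. Normally distributed values meet the criterion in about 1 in 20 groups, a rate that does not carry over to groups of few reads. The flagged values were CRHR1 in the muscle of bull 5 at 7.46 CPM (next 1.66 CPM), DRD2 in the fat of cow 2 at 10.98 CPM (next 1.39 CPM) and GHSR in the pituitary gland of cow 3 at 38.8 CPM (next 23.6 CPM). The other 2 rest on 3 or 4 reads, SSTR2 in the muscle of cow 5 at 0.394 CPM (the other cows at 0) and GHSR in the fat of bull 4 at 0.337 CPM (next 0.111 CPM).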

How the results depend on the processing

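Of the counts given for each comparison, 82 alternative values outside the leave-one-out fits stayed within 1.5 times the reported count and 3 did not. These were 1 receptor gene by sex in muscle with library sizes alone (CRHR1), 0 by sex in pituitary gland in the quasi-likelihood test, and 0 of the other pathway genes in that test. Without 1 animal the counts ran from 0 to 1 by sex in muscle, in pituitary gland and over tissues (CRHR1, without cow 4), and from 2 to 7 for the other pathway genes. They ran from 4 to 5 between fat and muscle and from 3 to 4 between liver and muscle. With the animal as a replicate block, 8 receptor genes differed between pituitary gland and each of liver, fat and muscle, 1 between fat and liver, 4 between fat and muscle and 3 between liver and muscle, CRHR1 against muscle being the one changed call. Library sizes alone moved the median log2 fold change of all genes from 0.03 to 0.89 for pituitary gland against muscle, from 0.12 to 0.92 against liver and from 0 to -0.13 by sex in pituitary gland, where the called genes were then 57.1% higher in bulls and not 74.5%. Correlations that turned their sign were GHSR with GH1 (0.12 within sex, 0.19 by Spearman), SSTR2 with GH1 (-0.0539) and DRD2 with PRL (-0.17) with library sizes alone, and GNRHR with LHB (0.12) and with NR5A1 (0.0545) by Spearman. Leaving out 1 animal turned the sign of the sex difference of GNRHR (-0.50 to 0.15) and SSTR2 (-0.13 to 0.46), of the ratios GHRHR to SSTR2 (-0.14 to 0.47), CRHR1 to AVPR1B (-0.37 to 0.37) and DRD2 to PRL (-0.36 to 0.25), and of the correlations GHSR with GH1 (-0.29 to 0.25), SSTR2 with GH1 (-0.0440 to 0.23), TRHR with TSHB (-0.42 to 0.18), DRD2 with PRL (-0.0249 to 0.55), AVPR1B with POMC (-0.46 to 0.20), CRHR1 with TBX19 (-0.0873 to 0.34) and GNRHR with LHB (-0.14 to 0.52), CGA (-0.32 to 0.15) and NR5A1 (-0.20 to 0.32), none of them past the threshold. The cause of these shifts was not tested. By sex in liver filterByExpr kept no receptor gene, and the order of levels between genes was not run. Receptor genes outside the pituitary gland mostly lie at 0 to 3 reads per library. None passed the threshold between the sexes in these tissues in the edgeR likelihood ratio test with TMM factors and all animals. The smallest difference that could be detected there was not computed.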
